A study of Mus musculus with 8 samples.

Results

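The serpins are the genes whose symbol begins with Serpin, followed by a clade letter from a to i, a number and at most 1 further letter. This rule takes 63 of the 55418 gene symbols counted in RNA from mouse distal colon, and 5 further serpin rows, all pseudogenes by their symbols, fall outside it. Among the 63, Serpina3h is annotated as a transcribed pseudogene and Serpinb10 as a polymorphic pseudogene. All 8 mice were C57BL/6, aged 8 to 10 weeks, with 2 mice in each of 4 groups. The ΔNFκB DSS and WT DSS groups drank 3% dextran sulfate sodium (DSS), which injures the colon epithelium, for 4 days and then plain water for 4 days. The ΔNFκB untreated and WT untreated groups drank no DSS. The ΔNFκB mice are of the NAIL-ΔNFκB line, WT mice are wild type, NAIL is a long noncoding RNA gene, and the labels used here do not say which bases the line carries changed or whether its mice come from 1 founder. A DSS course of this length followed by plain water is read at 1 time only, so none of the values below follow a mouse over time.

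Serpins share a fold with an exposed loop that a protease cuts as bait. The cleaved serpin then snaps shut and traps the protease for good. Clade A and the single-letter clades C to G act mostly outside cells, on clotting, fibrin breakdown, complement and the proteases of white blood cells, whereas clade B stays mostly inside cells and guards them against their own granule and lysosomal proteases. A few members, among them Serpinh1, Serpinf1 and Serpinb5, have the fold and inhibit no protease.

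The family was spread over 11 chromosomes, with 24 members on chromosome 12, 15 on chromosome 13 and 14 on chromosome 1. By clade there were 25 members of clade A, 27 of clade B, 3 of clade E, 2 each of clades F and I, and 1 each of clades C, D, G and H. A count above 0 was found for 45 members, 22 passed the filter on low counts and were tested, 23 had counts too low to test, and 18 had no count in any library. Where serpins lie side by side as near copies, in the Serpina1, Serpina3, Serpinb6 and Serpinb9 groups, reads can match several of them, so the split between neighbours is uncertain.

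The 8 libraries held 9229861 to 16935961 counts each, and levels are given as CPM, read counts scaled to library size. Pairs of libraries from the same group had a Pearson r of 0.974 to 0.981 across genes, which are not independent replicates. Y-linked transcripts summed to 233 to 248 CPM in the 2 ΔNFκB untreated libraries and in replicate 2 of the WT untreated group, so these mice were male. The remaining 5 mice had at most 0.183 CPM and were female. In ΔNFκB mice the DSS effect and sex therefore cannot be told apart, and in WT mice the untreated pair holds 1 male and 1 female while both DSS mice are female. The genotype comparison of untreated mice and the difference of DSS responses between genotypes are therefore mixed with sex too. In RNA from whole tissue, fewer cells of a type and less RNA per cell cannot be told apart either. Gm16685, known as the mouse NAIL gene though no label says so, had 55 and 86 reads in ΔNFκB DSS, 57 and 126 in the WT DSS pair, 3 and 4 in the ΔNFκB untreated pair and 3 and 20 in WT untreated libraries. It checks no label, since it is not stated whether the changed bases are among those counted. The smooth muscle, goblet cell and colonocyte marker lists summed to at least 879, 3139 and 1736 CPM in every library. All 9 smooth muscle markers were lower with DSS in both genotypes. Of 8 goblet cell markers 2 were higher and 5 lower with DSS in ΔNFκB mice, and 0 higher and 7 lower in WT mice. Of 9 colonocyte markers 1 was higher and 5 lower in ΔNFκB mice, and 0 higher and 7 lower in WT mice. WT untreated replicates 1 and 2 differed in mesothelium (1.44 and 48.6 CPM) and adipocyte (24.8 and 119 CPM) list sums. The part of these lists in the serpin values was not tested.

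The Serpina3 genes are shown first in sequence, because they are near copies of each other and 6 of the 8 serpins that rose with DSS in WT mice are among them. They lie in 1 cluster of 11 members at chr12:104112724-104414329 (mm10), 302 kb long. Below are the 250 bases before the RefSeq start (GRCm38.p6) of the 4 members Serpina3f, Serpina3g, Serpina3i and Serpina3n, each read 5′ to 3′ along the gene, with capitals marking matches to the STAT motif TTCNNNGAA or to the NF-κB consensus on either strand.
Serpina3f (chr12:104214294-104214543, plus strand): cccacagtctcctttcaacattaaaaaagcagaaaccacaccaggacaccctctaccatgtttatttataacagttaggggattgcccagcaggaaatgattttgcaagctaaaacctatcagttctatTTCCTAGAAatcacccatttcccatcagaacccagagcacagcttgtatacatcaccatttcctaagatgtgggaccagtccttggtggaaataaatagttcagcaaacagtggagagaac
Serpina3g (chr12:104235897-104236146, plus strand): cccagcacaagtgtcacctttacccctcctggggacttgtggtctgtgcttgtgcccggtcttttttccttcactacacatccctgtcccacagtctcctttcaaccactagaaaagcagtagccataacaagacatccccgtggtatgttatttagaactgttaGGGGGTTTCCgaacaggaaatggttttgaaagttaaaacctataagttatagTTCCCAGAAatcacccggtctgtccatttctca
Serpina3i (chr12:104262872-104263121, plus strand): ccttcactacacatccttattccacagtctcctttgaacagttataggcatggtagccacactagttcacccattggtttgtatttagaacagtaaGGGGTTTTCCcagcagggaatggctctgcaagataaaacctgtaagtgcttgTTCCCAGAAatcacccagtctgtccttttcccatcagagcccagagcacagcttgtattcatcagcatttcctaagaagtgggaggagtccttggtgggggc
Serpina3n (chr12:104406458-104406707, plus strand): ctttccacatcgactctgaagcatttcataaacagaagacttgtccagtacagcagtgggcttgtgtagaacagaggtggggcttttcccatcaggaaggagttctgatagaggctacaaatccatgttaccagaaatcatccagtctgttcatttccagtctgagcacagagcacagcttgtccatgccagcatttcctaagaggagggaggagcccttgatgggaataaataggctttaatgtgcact

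Aligned to each other, these windows were identical at 75.8% (Serpina3f and Serpina3n) to 86.4% (Serpina3f and Serpina3i) of their aligned bases. In Serpina3g the NF-κB match ended 76 bases before the start and the STAT match 25 bases before it. In Serpina3i they ended 145 and 94 bases before the start, so the same pair of matches sat in the same order with the start placed differently. Serpina3f had 1 STAT match, ending 113 bases before its start, and Serpina3n had none of either motif. Of all 32851 RefSeq windows of this length, 7.25% held the NF-κB consensus and 7.02% the STAT motif, against 3 and 10 of the 62 windows of serpins, which cover 53 of the 63 members. The AP-1 motif TGANTCA was in 12 of the 62 serpin windows and 6.75% of all windows, the heat shock element GAANNTTC in 3 and 6.69%, and the IRF motif (GAAA, 2 bases of any kind, then GAAA) in 2 and 2.98%. Beside Serpina3g and Serpina3i, the NF-κB consensus was in the window of Serpinh1, ending 101 bases before its start. The IRF matches belonged to Serpinb6a and Serpinb9. These are matches of letters in a window, not binding sites.

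In CPM, 2 clade B genes made up most of the family in every library but those of WT DSS mice. Serpinb1a and Serpinb6a together held 70.5% and 71.5% of the CPM summed over the 63 members in ΔNFκB DSS libraries, 47.4% and 33.6% in the WT DSS pair, 67.3% and 74.5% in the ΔNFκB untreated pair and 68.6% and 80.3% in WT untreated libraries. The 11 Serpina3 genes held 7.86% and 6.12% in ΔNFκB DSS, 26.9% and 38.9% in the WT DSS pair, 2.77% and 0.889% in the ΔNFκB untreated pair, and 0.862% and 1.6% in WT untreated libraries. The serpins as a whole summed to 801 and 820 CPM, 980 and 1523 CPM, 893 and 970 CPM, and 1010 and 1383 CPM in the same order of groups. The Serpina3 share in the WT DSS libraries stood above that of the other 6 libraries, and the share of the 2 clade B genes stood below. Per kilobase of exon, the highest means over the 8 libraries were 172 CPM per kb for Serpinb1a, 48.2 for Serpinb6a, 46.7 for Serpina3n, 30.6 for Serping1, 26.0 for Serpinh1 and 24.0 for Serpinb5, and the other 16 tested members were below 8.

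Of the 22 tested serpins 17 passed the test in at least 1 comparison, where a pass is an adjusted p under 0.05 over all 17522 genes (edgeR quasi-likelihood). With DSS in ΔNFκB mice 10 of 22 passed, against 35.4% of all genes tested, 4 of them higher (16.2% of all genes) and 6 lower (19.2%). With DSS in WT mice 12 of 22 passed, against 36% of all genes, 8 of them higher (17.2%) and 4 lower (18.8%). Between ΔNFκB DSS and WT DSS mice 9 of 22 passed, against 20% of all genes, and all 9 were lower in ΔNFκB DSS (11.7% of all genes were lower), while 0 were higher (8.32%). Serpinb5 was higher and passed in some alternative fits, as given below. Of the 9, Serpina3h, Serpina3i and Serpina3m met the filter on low counts in both libraries of the WT DSS group alone. Between ΔNFκB untreated and WT untreated mice 0 of 22 passed, against 0.388% of all genes (0.0399% higher and 0.348% lower). The DSS response differed between the genotypes for 8 of 22, against 17.7% of all genes, with 7 lower in ΔNFκB mice (9.07%) and 1 higher (8.63%).

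The tested serpins had a median log2 fold change of −0.63 with DSS in ΔNFκB mice (−0.04 over all genes), 0.37 with DSS in WT mice (0.00 over all genes), −1.45 in ΔNFκB DSS over WT DSS (0.03) and −0.03 in ΔNFκB untreated over WT untreated (0.03). The members that passed the filter are not all members, and these medians describe them only. The filter asks for 2 libraries over its minimum, and Serpina3c, Serpina3h, Serpina3i and Serpina3m met it in both libraries of the WT DSS group alone. The filter thus favoured a higher WT DSS level for these 4, so the counts of members higher with DSS in WT mice and lower in ΔNFκB DSS mice are descriptions and support nothing. Among the other 18 tested serpins 5 were higher with DSS in WT mice and 6 were lower in ΔNFκB DSS than in WT DSS mice. Serpina3f, among the 5, met the filter in both libraries of the DSS groups only. Serpina9 did so in the untreated groups only. For these members the filter favoured a difference between DSS and untreated mice. Only the WT untreated group held both sexes, so a sex term rests on the difference between its 2 mice alone. Such a term cannot tell sex from any other difference between them. For the DSS response of WT mice it does much the same as leaving out WT untreated replicate 2. The count of 10 in ΔNFκB mice was 3 once a sex term was fitted (Serpinb5, Serpinf1 and Serpinh1). It was 2 without either ΔNFκB DSS library, 6 without ΔNFκB untreated replicate 1 and 3 without replicate 2. The count of 9 between ΔNFκB DSS and WT DSS mice was 5 without ΔNFκB DSS replicate 1, 1 without ΔNFκB DSS replicate 2 and 4 without WT DSS replicate 2. The count of 8 differing responses was 1 without ΔNFκB DSS replicate 2 or ΔNFκB untreated replicate 1, 3 without ΔNFκB DSS replicate 1 or WT DSS replicate 2, 4 without ΔNFκB untreated replicate 2 or WT untreated replicate 2, and 5 without WT DSS replicate 1. Where a library is left out, the mouse that remains is assumed to vary like the other groups.

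**Figure D1:**
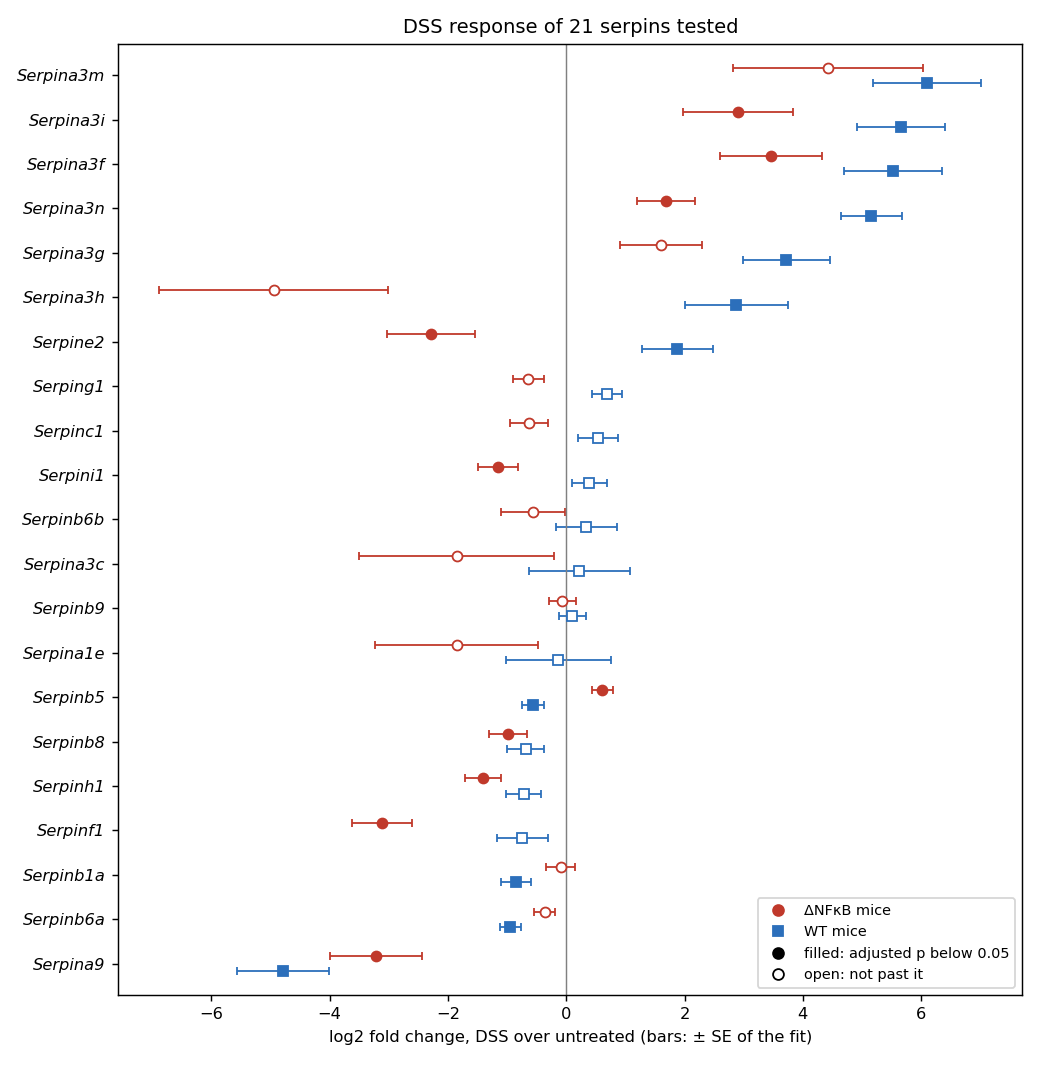
Log2 fold change with DSS (DSS over untreated, ± SE of the fit) of 21 tested serpins in ΔNFκB mice (circles) and WT mice (squares), with filled symbols for an adjusted p under 0.05. Serpina3m, Serpina3i, Serpina3f and Serpina3n lie at the top with the highest values in WT mice, and the filled symbols of Serpine2 and of Serpinb5 lie on opposite sides of 0 in the 2 genotypes. The values of Serpina3h and Serpina3m rest on groups with few or no counts.

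Serpine2 (mm10, chr1:79794197-79861180, minus strand), protease nexin-1, inhibits thrombin and plasminogen activators at the cell surface. Its levels were 2.15 and 1.65 CPM in ΔNFκB DSS, 12.8 and 60.7 in the WT DSS pair, 11.2 and 7.48 in the ΔNFκB untreated pair and 11.8 and 8.25 in WT untreated libraries. The ΔNFκB DSS libraries were below all 6 others, while WT DSS replicate 1 lay close to the untreated libraries and replicate 2 far above them. Serpine2 fell with DSS in ΔNFκB mice (log2 fold change −2.29 ± 0.74, SE of the fit, n = 2 per group, adjusted p = 0.0433), rose in WT mice (1.88 ± 0.60, adjusted p = 0.0400), and was lower in ΔNFκB DSS than in WT DSS mice (−4.27 ± 0.73, adjusted p = 0.00773). The responses differed by −4.17 ± 0.95 (adjusted p = 0.0248). The rise in WT mice rested on WT DSS replicate 2, without which it was 0.35 (adjusted p = 0.485). It was lost on leaving out any other library but WT DSS replicate 1 (1.68 to 2.20), with a sex term (1.64, adjusted p = 0.161), with DESeq2 (1.88, adjusted p = 0.0640) and in a fit of the 2 groups alone (1.88, adjusted p = 0.0810). Without WT DSS replicate 2 the after-DSS value was −2.74 and the difference −2.64, both still passing. The after-DSS call was lost without ΔNFκB DSS replicate 2 (−4.13), the difference without either ΔNFκB DSS library, ΔNFκB untreated replicate 1 or WT untreated replicate 2 (−4.35 to −3.87). The fall in ΔNFκB mice was lost on leaving out any library of ΔNFκB or untreated mice (−2.53 to −1.95) and with a sex term (−2.81, adjusted p = 0.139).

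Serpinb2 and Serpinf2, which also act on this step, were too low to test. Serpinb2, the plasminogen activator inhibitor PAI-2, had 0 reads in both ΔNFκB DSS libraries and 11 and 3 reads in the WT DSS pair, against 2 and 0 in the ΔNFκB untreated pair and 0 and 1 in WT untreated libraries. Scaled to depth, WT DSS over WT untreated was 18.1-fold with a 95% counting interval of 2.75 to 763, and ΔNFκB DSS was at least 4.27-fold lower than WT DSS against a floor of 3 counts over the group. Of the exon bases of Serpinb2, 12.4% are shared with Serpinb10. Serpinf2, α2-antiplasmin, had at most 7 reads in any library.

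Of the 10 tested genes of plasminogen activation that these serpins act on or beside, 4 rose and 1 fell with DSS in ΔNFκB mice, 6 rose and 1 fell in WT mice, and 1 was higher and 5 lower in ΔNFκB DSS than in WT DSS mice. Between the untreated groups 0 passed. Thbs1, a matrix protein that binds plasminogen activators, fell in ΔNFκB mice (−1.26 ± 0.15, adjusted p = 0.000672) and rose in WT mice (2.68 ± 0.15, adjusted p = 4.1e-05). Plat, the tissue plasminogen activator, rose in both (0.998 ± 0.33 in ΔNFκB mice, adjusted p = 0.046, and 3.47 ± 0.33 in WT mice, adjusted p = 0.0003), and Plaur, the urokinase receptor, also rose in both (2.88 ± 0.38 and 3.36 ± 0.37). The list's median log2 fold change was −1.69 in ΔNFκB DSS over WT DSS mice, against 0.03 over all genes. Plg itself, the plasminogen gene, had no count in any library.

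Serpinc1 (chr1:160978585-161005863, plus strand), antithrombin, the main plasma inhibitor of thrombin and made chiefly in liver, was the only tested serpin of the coagulation group. It stood at 4.20 and 6.08 CPM in ΔNFκB DSS, 4.54 and 4.03 in the WT DSS pair, 10.2 and 5.69 in the ΔNFκB untreated pair, and 2.71 and 3.15 in WT untreated libraries. Both ΔNFκB untreated libraries were above both WT untreated ones (1.43 ± 0.33), but the adjusted p was 0.139, and it passed only when no filter on low counts was used (1.38, adjusted p = 0.0334). Of its exon bases 34.4% are shared with Zbtb37, so its reads may come from either gene. Serpind1, Serpina5 and Serpina10, which inhibit thrombin, activated protein C and factor Xa, had at most 14 reads in any library, and Serpina5 had none. Among 11 tested coagulation genes, 0 rose and 6 fell with DSS in ΔNFκB mice, 2 rose and 2 fell in WT mice, and 1 was higher and 5 lower in ΔNFκB DSS than in WT DSS mice. F13a1, the fibrin cross-linking factor XIII A chain, was lower in ΔNFκB DSS than in WT DSS mice (−3.21 ± 0.34, adjusted p = 0.0022).

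Serping1 (chr2:84765387-84775444, minus strand), the C1 inhibitor, shuts off the first proteases of complement and the contact system. It had 43.4 and 46.3 CPM in ΔNFκB DSS, 75.5 and 134 in the WT DSS pair, 75.1 and 64.8 in the ΔNFκB untreated pair and 74.2 and 55.3 in WT untreated libraries. The ΔNFκB DSS libraries were the lowest 2 of the 8 and both WT DSS libraries the highest 2. Serping1 was lower in ΔNFκB DSS than in WT DSS mice (−1.22 ± 0.26, adjusted p = 0.0160), and its responses differed by −1.34 ± 0.36 (adjusted p = 0.0390). Neither response passed by itself, at −0.64 ± 0.26 in ΔNFκB mice (adjusted p = 0.0860) and 0.70 ± 0.25 in WT mice (adjusted p = 0.0614). The after-DSS call was lost without either ΔNFκB DSS library or without WT DSS replicate 2 (−1.30 to −0.74). The difference was lost without these and also without either ΔNFκB untreated library or WT untreated replicate 2 (−1.46 to −0.85 over these 6). The ΔNFκB response passed with no filter on low counts (−0.61, adjusted p = 0.0327) and in a fit of the 2 groups alone (−0.62, adjusted p = 0.00919). It was −0.63 and −0.64 without WT DSS replicate 1 or 2. The WT response passed with no filter (0.70, adjusted p = 0.0132) and with DESeq2 (0.69, adjusted p = 0.0244), and was 1.04 without WT DSS replicate 1. Of 8 tested genes of classical complement and the contact system, not all of them proteases, 1 rose and 1 fell in ΔNFκB mice. In WT mice 4 rose and 0 fell, and 0 were higher and 2 lower in ΔNFκB DSS than in WT DSS mice. C1s1, a protease that Serping1 traps, rose in WT mice (1.08 ± 0.28, adjusted p = 0.018) and was lower in ΔNFκB DSS mice than in WT DSS mice (−1.01 ± 0.28, adjusted p = 0.038).

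The Serpina3 genes stand where human has 1 gene, SERPINA3 or α1-antichymotrypsin, an inhibitor of cathepsin G and an acute-phase protein. Of the 11 in the cluster 7 were tested, and with DSS in WT mice 6 of these 7 rose, all but Serpina3c, against 17.2% of all genes. As near copies that can share reads, they are not separate observations. Serpina3h, Serpina3i and Serpina3m are among the members that passed the filter through the WT DSS libraries, where they are high. In ΔNFκB mice 3 rose (Serpina3f, Serpina3i and Serpina3n), against 16.2% of all genes, and 0 fell, against 19.2%. Serpina3h, Serpina3i, Serpina3m and Serpina3n, 4 of the 7, were lower in ΔNFκB DSS than in WT DSS mice, against 11.7% of all genes. Summed over the 11 genes the level was 62.9 and 50.2 CPM in ΔNFκB DSS, 264 and 593 in the WT DSS pair, 24.8 and 8.62 in the ΔNFκB untreated pair and 8.70 and 22.2 in WT untreated libraries, so DSS libraries of both genotypes were above all untreated ones.

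**Figure D2:**
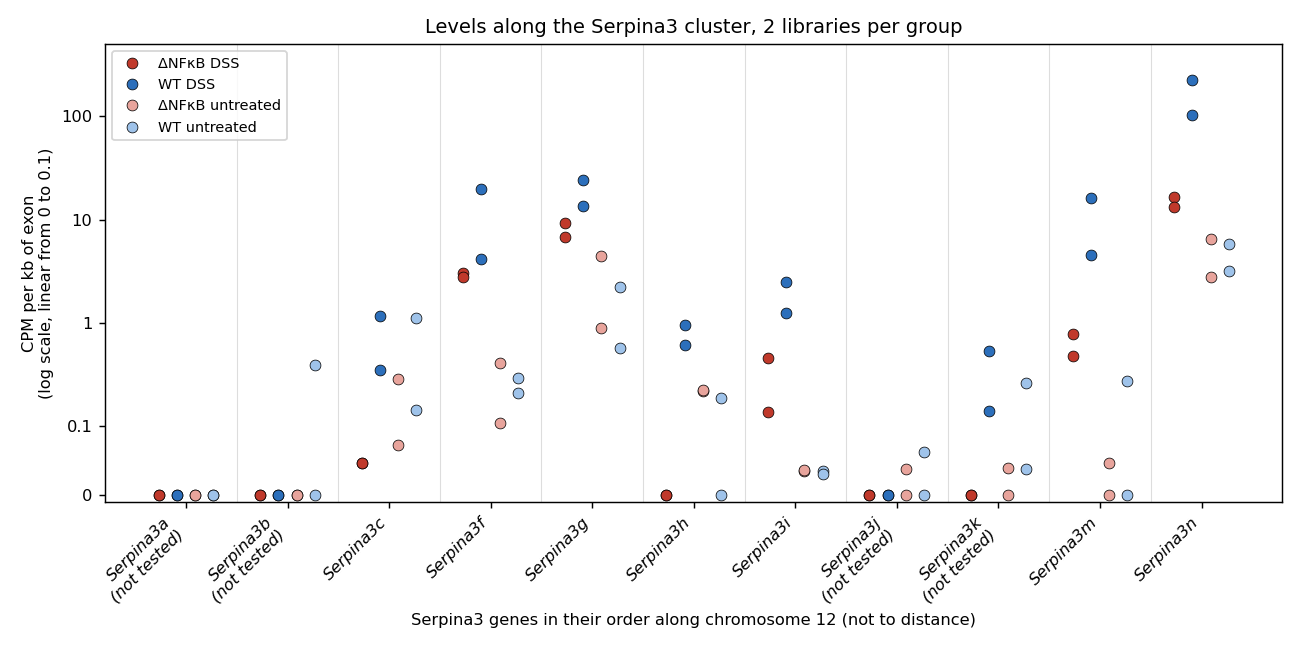
Level of each Serpina3 gene in CPM per kb of exon (log scale, linear from 0 to 0.1) in the 8 libraries, with genes in their order along chromosome 12. Serpina3n reached the highest level in WT DSS libraries, Serpina3a was at 0 throughout, and Serpina3h was at 0 in both ΔNFκB DSS libraries.

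Serpina3n (chr12:104406729-104414329, plus strand), a secreted inhibitor that in mouse acts on granzyme B and cathepsin G, was the most abundant of them. It had 34.4 and 27.6 CPM in ΔNFκB DSS, 213 and 458 in the WT DSS pair, 13.5 and 5.69 in the ΔNFκB untreated pair, and 6.55 and 12.1 in WT untreated libraries, with the 2 DSS groups apart from each other and from the untreated libraries. It rose with DSS in ΔNFκB mice by 1.69 ± 0.49 (adjusted p = 0.0281) and in WT mice by 5.16 ± 0.52 (adjusted p = 0.000377). It was lower in ΔNFκB DSS than in WT DSS mice (−3.43 ± 0.47, adjusted p = 0.00380). The responses differed by −3.47 ± 0.68 (adjusted p = 0.0159). The rise in ΔNFκB mice was lost without either ΔNFκB DSS library (1.53 and 1.87), without ΔNFκB untreated replicate 2 (1.22) and with a sex term (2.57). Without ΔNFκB DSS replicate 2 the after-DSS value was −3.32 (adjusted p = 0.0549) and the difference −3.33 (adjusted p = 0.0774), and without ΔNFκB untreated replicate 1 the difference was −2.73 (adjusted p = 0.0682).

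Serpina3f (chr12:104214544-104221129, plus strand) lay at 6.97 and 6.39 CPM in ΔNFκB DSS, 9.46 and 45.1 in the WT DSS pair, 0.946 and 0.244 in the ΔNFκB untreated pair and 0.479 and 0.671 in WT untreated libraries. All 4 DSS libraries were above all 4 untreated ones. Serpina3f passed the filter through the DSS libraries, where it is high. It rose by 3.45 ± 0.86 in ΔNFκB mice (adjusted p = 0.0161) and 5.53 ± 0.83 in WT mice (adjusted p = 0.00204), with −2.03 ± 0.64 in ΔNFκB DSS over WT DSS mice (adjusted p = 0.0576) and a difference of responses of −2.07 ± 1.33 (adjusted p = 0.296). The rise in ΔNFκB mice was lost without either ΔNFκB DSS library (3.40 and 3.54), without ΔNFκB untreated replicate 2 (2.82) or with a sex term (3.93). The after-DSS value passed with no filter on low counts (−2.06, adjusted p = 0.00312) and with DESeq2 (−2.03, adjusted p = 0.00332). It was −2.74 without WT DSS replicate 1 and −0.50 without replicate 2.

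Serpina3g (chr12:104236245-104241939, plus strand), which in mouse works inside cells against lysosomal cathepsins, had 19.6 and 14.4 CPM in ΔNFκB DSS, 28.6 and 51.1 in the WT DSS pair, 9.31 and 1.87 in the ΔNFκB untreated pair, and 1.20 and 4.69 in WT untreated libraries. The groups did not overlap between DSS and untreated libraries in either genotype. It rose in WT mice (3.72 ± 0.73, adjusted p = 0.00634) and stood at 1.6 ± 0.69 in ΔNFκB mice (adjusted p = 0.105), −1.23 ± 0.64 in ΔNFκB DSS over WT DSS mice (adjusted p = 0.204) and −2.12 ± 0.99 for the difference of responses (adjusted p = 0.164). The ΔNFκB value was 3.19 without ΔNFκB untreated replicate 1, and with no filter on low counts it was 1.62 and passed (adjusted p = 0.0154). The after-DSS value passed in a fit of the 2 groups alone (−1.29, adjusted p = 0.0282), and the difference of responses with no filter (−2.09, adjusted p = 0.0470).

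Serpina3i (chr12:104263122-104269372, plus strand) and Serpina3m were close to 0 without DSS. Serpina3i had 1.02 and 0.309 CPM in ΔNFκB DSS, 2.80 and 5.59 in the WT DSS pair, and between 0.0671 and 0.0814 in the 4 untreated libraries, each a single read. From 13 reads against 2 it was 8.34-fold higher with DSS in ΔNFκB mice (95% counting interval 1.89 to 76.1), and from 90 against 2 it was 58.0-fold higher in WT mice (15.6 to 486). The fit gave 2.90 ± 0.93 (adjusted p = 0.0422) and 5.65 ± 0.74 (adjusted p = 0.00121) for these, and −2.63 ± 0.56 for ΔNFκB DSS over WT DSS mice (adjusted p = 0.0167). The difference of responses was −2.75 ± 1.63 (adjusted p = 0.262). The rise in ΔNFκB mice was lost in 8 of 15 alternatives, with 1.83 without ΔNFκB DSS replicate 1 and 2.89 to 2.94 without each untreated library, 2.68 with a sex term (adjusted p = 0.492) and 3.08 with DESeq2 (adjusted p = 0.0813). After DSS, the call was lost without ΔNFκB DSS replicate 2 (−2.06) or WT DSS replicate 2 (−2.05).

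Serpina3m (chr12:104338486-104394257, plus strand) had 0.820 and 1.34 CPM in ΔNFκB DSS, 7.82 and 28.1 in the WT DSS pair, 0 and 0.0814 in the ΔNFκB untreated pair and 0 and 0.469 in WT untreated libraries. The 3 levels of WT DSS, ΔNFκB DSS and untreated libraries did not overlap. It rose in WT mice (6.10 ± 0.92, adjusted p = 0.00210) and was lower in ΔNFκB DSS than in WT DSS mice (−4.05 ± 0.79, adjusted p = 0.0118). In ΔNFκB mice 21 reads stood against 1, which is 26.9-fold (95% counting interval 4.33 to 1114), and the fit gave 4.42 ± 1.61 (adjusted p = 0.0631). This value passed with no filter on low counts (4.44, adjusted p = 0.00784) and with a term for replicate number (4.51, adjusted p = 0.011). It was 4.42 or 4.43 without any 1 of the 4 WT libraries. The after-DSS call was lost without ΔNFκB DSS replicate 1 (−3.72), ΔNFκB DSS replicate 2 (−4.48) or WT DSS replicate 2 (−2.84). Without WT untreated replicate 2 the WT group was at 0 and the WT value became 10.7, which depends on the prior count. The difference of responses was −1.68 ± 3.69 (adjusted p = 0.772). Serpina3m shares 3.49% of its exon bases with a neighbour.

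Serpina3h (chr12:104247905-104253669, plus strand), annotated as a transcribed pseudogene, was the only tested serpin with no read in a whole group. It had 0 and 0 reads in ΔNFκB DSS, 9 and 15 in the WT DSS pair, 4 and 4 in the ΔNFκB untreated pair and 0 and 4 in WT untreated libraries. Against a floor of 3 counts over the group, ΔNFκB DSS was at least 7.32-fold lower than WT DSS and at least 2.08-fold lower than ΔNFκB untreated. The test passed for ΔNFκB DSS against WT DSS mice (adjusted p = 0.0258), for the rise in WT mice (2.88 ± 0.87, adjusted p = 0.0379) and for the difference of responses (adjusted p = 0.0390), but not with DSS in ΔNFκB mice (adjusted p = 0.0850). The after-DSS call was lost without any 1 of the 4 DSS libraries (adjusted p = 0.0643 to 0.135), the difference also without either ΔNFκB untreated library (adjusted p = 0.0752 to 0.117 over these 6). The rise in WT mice was lost on leaving out any library but ΔNFκB DSS replicate 2 and WT untreated replicate 2 (2.05 to 3.16). Without WT untreated replicate 2 it was fitted at 6.7, which depends on the prior count.

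Serpina3c (chr12:104146382-104153870, minus strand), the remaining tested gene of the cluster, had 0.102 and 0.103 CPM in ΔNFκB DSS, 0.773 and 2.56 in the WT DSS pair, 0.631 and 0.163 in the ΔNFκB untreated pair, and 0.319 and 2.48 in WT untreated libraries. From 2 reads against 36 it was 16.5-fold lower in ΔNFκB DSS than in WT DSS mice (95% counting interval 4.24 to 141). The adjusted p of the fit was 0.0775. The value passed with no filter on low counts (−3.92, adjusted p = 0.0143), with a sex term (−3.90, adjusted p = 0.0307) and with DESeq2 (−4.02, adjusted p = 0.0463). It was −3.94 and −3.93 without WT untreated replicate 1 or 2. Serpina3k, too low to test, had 0 reads in both ΔNFκB DSS libraries and 3 and 12 in WT DSS libraries, at least 4.57-fold lower. Of 12 listed genes of neutrophil and mast cell granules, most but not all of them serine proteases, 3 were tested. Of these, 1 rose in each genotype, 1 fell in WT mice and 1 was higher in ΔNFκB DSS than in WT DSS mice. The 10 lysosomal cysteine proteases, cathepsins and Lgmn, split in both genotypes. With DSS 2 were higher and 5 lower in ΔNFκB mice and 2 higher and 3 lower in WT mice. Between the DSS groups 0 were higher and 6 lower in ΔNFκB DSS than in WT DSS mice. Ctsc, which activates granule proteases, rose in both (1.08 ± 0.14, adjusted p = 0.001, in ΔNFκB mice and 0.53 ± 0.14, adjusted p = 0.019, in WT mice).

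Serpina9 (chr12:103994743-104013755, minus strand), named centerin in human for its presence in germinal centre B cells, fell with DSS. It had 0.102 and 0.206 CPM in ΔNFκB DSS, 0.193 and 0 in the WT DSS pair, 2.05 and 0.976 in the ΔNFκB untreated pair and 2.63 and 3.15 in WT untreated libraries, with no overlap between DSS and untreated mice. It passed the filter through the untreated libraries, where it is high. From 3 reads against 38 it was 9.87-fold lower in ΔNFκB mice (95% counting interval 3.13 to 50.0), and from 2 against 80 it was 31.0-fold lower in WT mice (8.31 to 261). The fit gave −3.21 ± 0.78 (adjusted p = 0.0144) and −4.79 ± 0.78 (adjusted p = 0.00286). In ΔNFκB mice the call was lost without either ΔNFκB DSS library (−2.81 and −3.73), without ΔNFκB untreated replicate 1 (−2.56) or with a sex term (−2.95), and without WT DSS replicate 1 the WT group was at 0 and the fit gave −8.11. The B and plasma cell markers (6 of 8 tested, 1 of 6 lower with DSS in each genotype) summed to 97.3 and 5.26 CPM in ΔNFκB DSS, 181 and 124 in the WT DSS pair, 249 and 107 in the ΔNFκB untreated pair and 196 and 273 in WT untreated libraries. The median log2 fold change of the 6 tested markers was −0.48 with DSS in ΔNFκB mice and 1.40 in WT mice. In WT mice the median thus went the other way from the list sum and from Serpina9. The part of these markers in the fall of Serpina9 was not tested.

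The Serpina1 genes, which encode α1-antitrypsin, the inhibitor of neutrophil elastase, were nearly silent. Serpina1e, the 1 tested, had 2 reads over both ΔNFκB DSS libraries and 13 over both WT DSS libraries, 5.95-fold lower (95% counting interval 1.35 to 54.3), and passed the test in 0 comparisons.

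**Figure D3:**
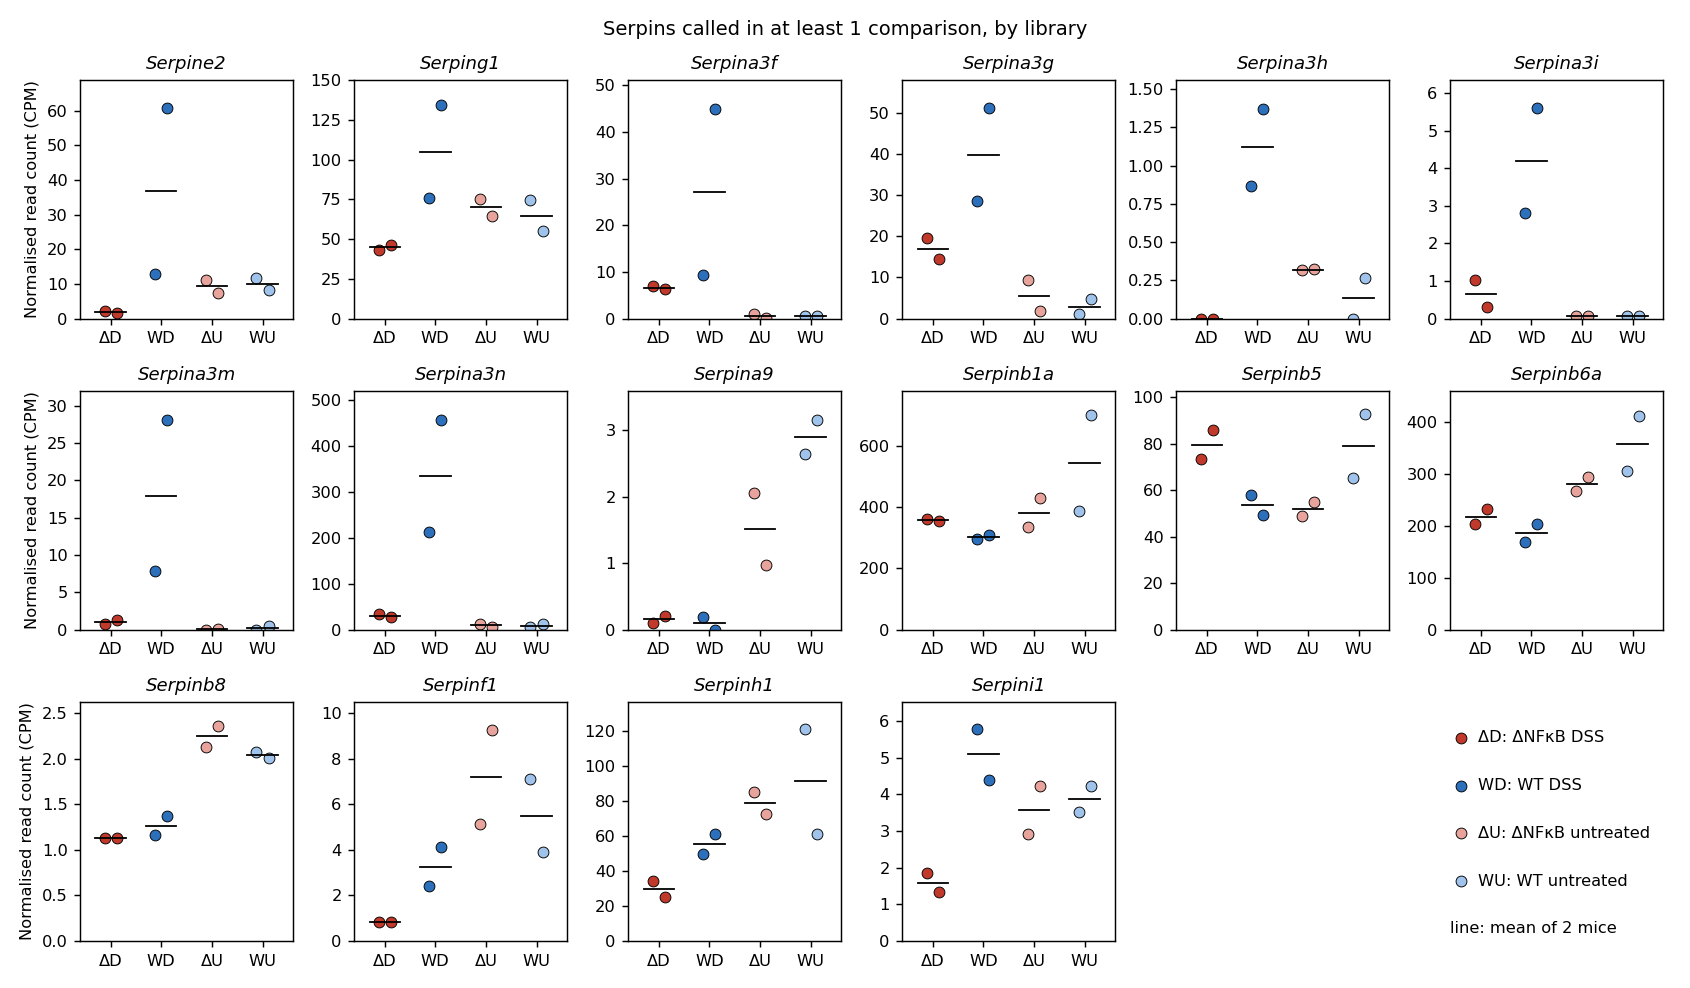
CPM of 16 serpins that passed the test in at least 1 comparison, with 1 point per library and a line at the mean of 2 mice, on axes that start at 0. Both WT DSS points are above the rest for the Serpina3 genes, and WT DSS replicate 2 is the higher of its pair in all 6 Serpina3 panels. For Serpina3f, WT DSS replicate 1 lies closer to the ΔNFκB DSS points than to replicate 2.

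Serpinb1a (chr13:32842092-32851185, minus strand), an inhibitor of neutrophil elastase and cathepsin G within cells, had the highest CPM of the serpins in every library but WT DSS replicate 2, where Serpina3n was higher. Its levels were 361 and 354 CPM in ΔNFκB DSS, 297 and 308 in the WT DSS pair, 334 and 429 in the ΔNFκB untreated pair and 388 and 699 in WT untreated libraries. Both WT DSS libraries were below all others, and WT untreated replicate 2 stood far above its partner. Serpinb1a fell in WT mice (−0.85 ± 0.25, adjusted p = 0.0312) and was at −0.09 ± 0.25 in ΔNFκB mice (adjusted p = 0.800). The difference of responses was 0.75 ± 0.35 (adjusted p = 0.167). The fall was −0.33 without WT untreated replicate 2 (adjusted p = 0.173). With a sex term it was −0.36 (adjusted p = 0.142). The call was also lost without any 1 of the 4 DSS libraries (−0.88 to −0.82) and in a fit of the 2 groups alone (−0.85, adjusted p = 0.0651). The difference passed without WT untreated replicate 1 (1.10, adjusted p = 0.0133) and with a sex term (1.12, adjusted p = 0.0126).

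Serpinb6a (chr13:33917918-34002794, minus strand), another cytosolic inhibitor of cathepsin G, had 203 and 232 CPM in ΔNFκB DSS, 168 and 205 in the WT DSS pair, 267 and 293 in the ΔNFκB untreated pair and 305 and 412 in WT untreated libraries. DSS libraries were below untreated ones in both genotypes. It fell in WT mice (−0.94 ± 0.17, adjusted p = 0.00471), a call kept in all 16 alternatives, and was at −0.37 ± 0.17 in ΔNFκB mice (adjusted p = 0.132). The difference of responses was 0.58 ± 0.24 (adjusted p = 0.130) and passed without WT untreated replicate 1 (0.77, adjusted p = 0.0403) and with a sex term (0.78, adjusted p = 0.0351). Of its exon bases 29.3% are shared with neighbouring genes, so part of its count is uncertain.

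Serpinb5 (chr1:106861173-106883348, plus strand), maspin, has the serpin fold but blocks no protease and is typical of epithelium. It had 73.1 and 85.9 CPM in ΔNFκB DSS, 57.8 and 49.4 in the WT DSS pair, 49.1 and 55.1 in the ΔNFκB untreated pair, and 65.3 and 92.6 in WT untreated libraries. It rose with DSS in ΔNFκB mice (0.61 ± 0.18, adjusted p = 0.0304) and fell in WT mice (−0.56 ± 0.18, adjusted p = 0.0408), the only tested serpin to do so. The difference of 1.17 ± 0.25 passed (adjusted p = 0.0212). It was at 0.57 ± 0.18 in ΔNFκB DSS over WT DSS mice (adjusted p = 0.0584) and −0.60 ± 0.18 in ΔNFκB untreated over WT untreated mice (adjusted p = 0.190), so the 2 genotype comparisons pointed in opposite directions. The fall in WT mice was −0.26 without WT untreated replicate 2 and was lost on leaving out any library but WT untreated replicate 1 (−0.69 to −0.26). With a sex term it was −0.29 (adjusted p = 0.221), and in a fit of the 2 groups alone −0.56 (adjusted p = 0.0758). The rise was lost without any 1 of the 4 ΔNFκB libraries (0.52 to 0.73). The difference was lost without ΔNFκB DSS replicate 2 (1.05), WT DSS replicate 2 (1.07) or ΔNFκB untreated replicate 1 (1.08). The after-DSS value passed with no filter on low counts (0.55, adjusted p = 0.0351) and with a sex term (0.57, adjusted p = 0.0212). It also passed in a fit of the 2 groups alone (0.52, adjusted p = 0.0290) and with DESeq2 (0.57, adjusted p = 0.0425), and was 0.53 without either WT untreated library. Without WT untreated replicate 1 the untreated value was −0.86. Of 8 tested markers of stratified squamous epithelium 3 rose with DSS in each genotype and 1 was higher and 1 lower in ΔNFκB DSS than in WT DSS mice. The median log2 fold change of these 8 was −0.78 in ΔNFκB DSS over WT DSS mice, while the list sum went the other way. The whole list of 18, with Ivl, Sprr1b and Sprr3 at 0, summed to 2622 and 2661 CPM in ΔNFκB DSS, 1264 and 1075 in the WT DSS pair, 1102 and 1844 in the ΔNFκB untreated pair and 993 and 2465 in WT untreated libraries. Their part in the Serpinb5 result was not tested.

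Serpinb8 (chr1:107590006-107610484, plus strand), which in human inhibits furin, had 1.13 and 1.13 CPM in ΔNFκB DSS, 1.16 and 1.37 in the WT DSS pair, 2.13 and 2.36 in the ΔNFκB untreated pair and 2.08 and 2.01 in WT untreated libraries. All 4 DSS libraries were below all 4 untreated ones. It fell in ΔNFκB mice (−0.98 ± 0.32, adjusted p = 0.0459) and was at −0.68 ± 0.32 in WT mice (adjusted p = 0.123), but the call was lost in 13 of 16 alternatives, including the removal of any 1 library (−1.04 to −0.89).

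Serpinb9 (chr13:33003250-33017957, plus strand), which protects cells from granzyme B, did not pass in any comparison. It had 7.48 and 9.79 CPM in ΔNFκB DSS, 10.8 and 9.98 in the WT DSS pair, 10.5 and 7.57 in the ΔNFκB untreated pair and 10.1 and 9.19 in WT untreated libraries, and its log2 fold change was −0.06 ± 0.23 in ΔNFκB mice, 0.11 ± 0.22 in WT mice and −0.27 ± 0.23 in ΔNFκB DSS over WT DSS mice. Its target Gzmb, granzyme B, rose with DSS in both genotypes (5.05 ± 0.63, adjusted p = 0.00086, in ΔNFκB mice and 5.96 ± 0.70, adjusted p = 0.00074, in WT mice), as did Gzma, and these were the 2 of 4 tested granule genes that passed. Serpinb6b had 1.55 to 4.97 CPM over the 8 libraries and passed in 0 comparisons. The other 21 members of clade B were too low to test or at 0, among them all 4 Serpinb3 genes and Serpinb9c to Serpinb9g, which had no count.

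Serpinh1 (chr7:99345376-99353239, minus strand), the collagen chaperone HSP47 of the endoplasmic reticulum, inhibits no protease. It had 34.1 and 25.2 CPM in ΔNFκB DSS, 49.4 and 61.0 in the WT DSS pair, 84.7 and 72.2 in the ΔNFκB untreated pair and 121 and 61.0 in WT untreated libraries. The ΔNFκB DSS libraries were the lowest 2 of the 8. Serpinh1 fell in ΔNFκB mice (−1.40 ± 0.31, adjusted p = 0.00908), with −0.72 ± 0.30 in WT mice (adjusted p = 0.0893) and −0.90 ± 0.31 in ΔNFκB DSS over WT DSS mice (adjusted p = 0.0726). The responses did not pass for a difference (−0.68 ± 0.42, adjusted p = 0.280). The fall was lost without ΔNFκB DSS replicate 2 (−1.17) and was −2.39 with a sex term. Without WT untreated replicate 2 the WT value passed (−1.10, adjusted p = 0.0107), without either WT untreated library the after-DSS value passed (−0.93 in both cases, adjusted p = 0.0137 and 0.0133), and without WT untreated replicate 1 the difference passed (−1.27, adjusted p = 0.0232). With a sex term the WT value (−1.13), the after-DSS value (−0.90) and the difference (−1.26) passed too. The after-DSS value also passed with no filter on low counts (−0.92, adjusted p = 0.00736) and a term for replicate number (−0.93, adjusted p = 0.0488). It passed in the 2 groups alone (−0.95, adjusted p = 0.0167) and with DESeq2 (−0.89, adjusted p = 0.0120). The WT value passed with no filter (−0.71, adjusted p = 0.0208) and with DESeq2 (−0.72, adjusted p = 0.0335).

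The 16 tested genes of collagen and collagen folding are the partners of Serpinh1. In ΔNFκB mice 2 rose and 5 fell with DSS, while in WT mice 9 rose and 1 fell, and 1 was higher and 12 lower in ΔNFκB DSS than in WT DSS mice, with a median of −1.82 there. Col1a1, the main fibrillar collagen chain, rose in WT mice (1.34 ± 0.24, adjusted p = 0.0041) and was lower in ΔNFκB DSS mice than in WT DSS mice (−1.90 ± 0.24, adjusted p = 0.0032). Plod2, a collagen lysyl hydroxylase, fell in ΔNFκB mice (−1.71 ± 0.27, adjusted p = 0.0024) and was at 0.41 ± 0.25 in WT mice (adjusted p = 0.23). P4hb, which works in collagen folding in the same compartment, rose in both genotypes (1.12 ± 0.12, adjusted p = 0.00044, and 0.38 ± 0.12, adjusted p = 0.034).

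Serpinf1 (chr11:75409769-75422701, minus strand), pigment epithelium-derived factor, is a secreted non-inhibitory serpin that restrains vessel growth. It had 0.820 and 0.824 CPM in ΔNFκB DSS, 2.41 and 4.12 in the WT DSS pair, 5.13 and 9.27 in the ΔNFκB untreated pair and 7.11 and 3.89 in WT untreated libraries. The ΔNFκB DSS libraries were below all others, and WT DSS overlapped WT untreated. Serpinf1 fell in ΔNFκB mice (−3.11 ± 0.50, adjusted p = 0.00250), kept in all 16 alternatives, and was at −0.74 ± 0.42 in WT mice (adjusted p = 0.200). It was lower in ΔNFκB DSS than in WT DSS mice (−1.98 ± 0.53, adjusted p = 0.0340). The responses differed by −2.37 ± 0.66 (adjusted p = 0.0433). The after-DSS call was lost without either ΔNFκB DSS library or WT DSS replicate 2 (−2.02 to −1.53). The difference was lost on leaving out any library but WT untreated replicate 1 (−2.76 to −1.90).

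Serpini1 (chr3:75557547-75643495, plus strand), neuroserpin, an inhibitor of tissue plasminogen activator made by neurons, had 1.84 and 1.34 CPM in ΔNFκB DSS, 5.79 and 4.40 in the WT DSS pair, 2.92 and 4.23 in the ΔNFκB untreated pair, and 3.51 and 4.23 in WT untreated libraries. The ΔNFκB DSS libraries were again the lowest 2. It fell in ΔNFκB mice (−1.16 ± 0.34, adjusted p = 0.0297), was at 0.39 ± 0.30 in WT mice (adjusted p = 0.330), was lower in ΔNFκB DSS than in WT DSS mice (−1.67 ± 0.34, adjusted p = 0.0135) and differed in response by −1.55 ± 0.45 (adjusted p = 0.0491). The difference was lost on leaving out any 1 library (−1.81 to −1.27), with a sex term (−1.43, adjusted p = 0.0855) and with DESeq2 (−1.53, adjusted p = 0.140). The fall was lost without either ΔNFκB DSS library or ΔNFκB untreated replicate 2 (−1.40 to −0.85), with a sex term (−0.89, adjusted p = 0.301) and with DESeq2 (−1.14, adjusted p = 0.112). After DSS, the call was lost without ΔNFκB DSS replicate 2 (−1.49) or WT DSS replicate 1 (−1.45). Enteric neuron and glia markers moved with it: 0 of 10 rose and 6 fell with DSS in ΔNFκB mice, 1 rose and 0 fell in WT mice, and 7 were lower in ΔNFκB DSS than in WT DSS mice, with sums of 16.6 and 14.4 CPM, 75.4 and 75.0, 56.2 and 46.8, and 56.8 and 60.2 CPM in ΔNFκB DSS, WT DSS, ΔNFκB untreated and WT untreated libraries. Their part in the result was not tested.

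The 23 members with too few reads to test were Serpina10, Serpina11, Serpina12, Serpina1a, Serpina1b, Serpina1c, Serpina1d, Serpina3b, Serpina3j, Serpina3k, Serpinb10, Serpinb11, Serpinb12, Serpinb13, Serpinb1b, Serpinb1c, Serpinb2, Serpinb6c, Serpinb6e, Serpinb7, Serpinb9b, Serpind1 and Serpinf2, with at most 14 reads in any library and at most 43 over the 8 libraries. The 18 members with no read in any library were Serpina16, Serpina1f, Serpina3a, Serpina5, Serpina6, Serpina7, Serpinb3a, Serpinb3b, Serpinb3c, Serpinb3d, Serpinb6d, Serpinb9c, Serpinb9d, Serpinb9e, Serpinb9f, Serpinb9g, Serpine3 and Serpini2. Among them are Serpina6 and Serpina7, carriers of corticosteroids and thyroid hormone in blood that inhibit no protease. A count of 0 says only that the gene was not detectable at this depth.

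**Figure D4:**
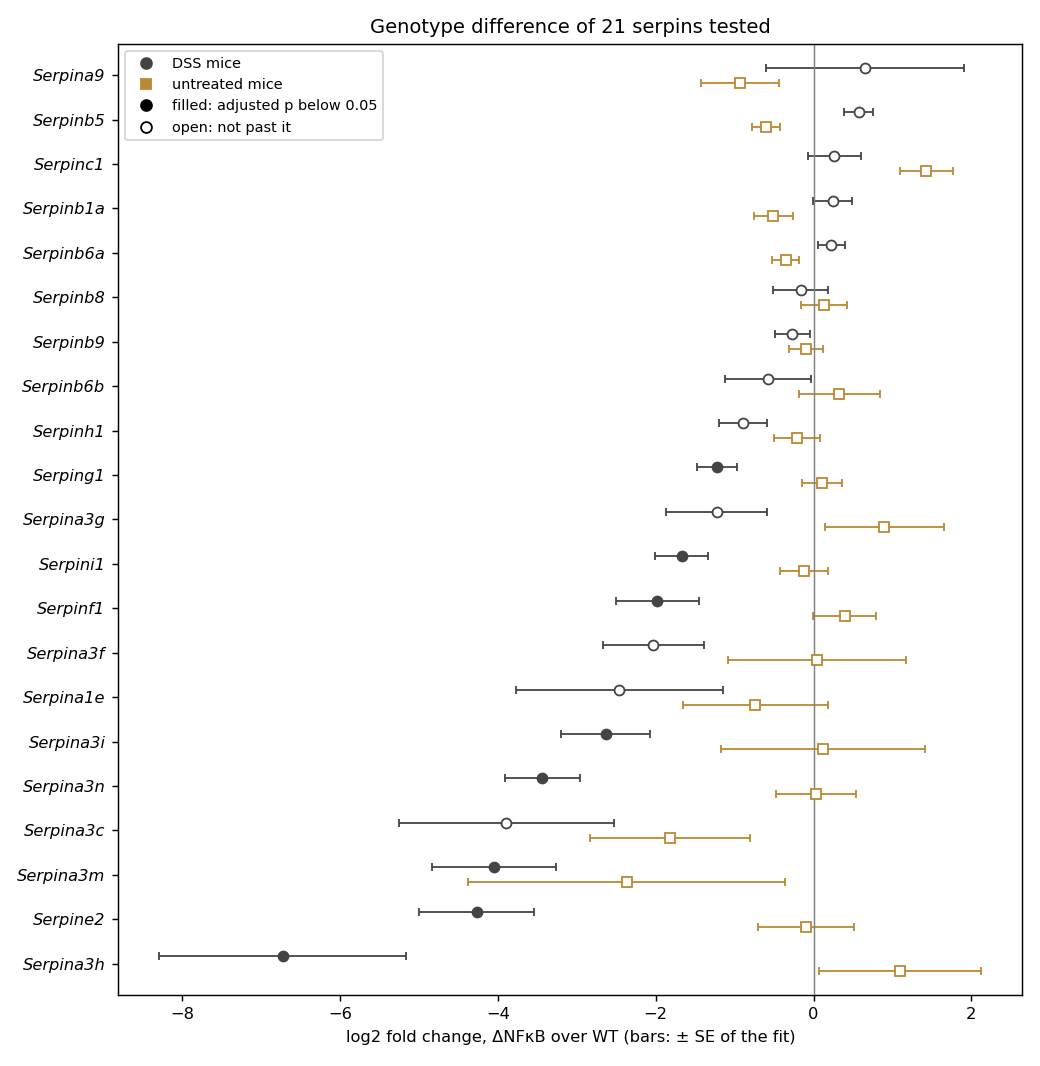
Log2 fold change between genotypes (ΔNFκB over WT, ± SE of the fit) of 21 tested serpins in DSS mice (circles) and untreated mice (squares), with filled symbols for an adjusted p under 0.05. The 8 filled symbols are all DSS values below 0, and no untreated value is filled; the value of Serpina3h rests on a group with no counts.

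Marker lists of several cell types differed between the DSS groups in the same direction as these 9 serpins. Of 9 fibroblast markers 0 were higher and 8 lower in ΔNFκB DSS than in WT DSS mice, with list sums of 709 and 563 CPM in ΔNFκB DSS, 1865 and 2854 in the WT DSS pair, 1591 and 1619 in the ΔNFκB untreated pair and 1937 and 1150 in WT untreated libraries. Of 9 endothelial markers 8 were lower, with 46.6 and 34.0 CPM, 157 and 206, 139 and 108, and 144 and 103 CPM in those groups. Of 9 tested neutrophil markers 7 were lower, with 212 and 170, 514 and 664, 91.5 and 135, and 98.0 and 232 CPM, and all 8 goblet cell markers were higher. In these 4 lists 0 markers were at 0 in all libraries. Other lists moved less. In this comparison 1 of 9 smooth muscle, 2 of 10 macrophage and monocyte, 0 of 7 T and NK cell and 1 of 7 enteroendocrine markers were lower. Of 9 colonocyte markers 4 were higher and 2 lower. Of all genes tested, 11.7% were lower and 8.32% higher. The part of the marker lists in the serpin differences was not tested.

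**Figure D5:**
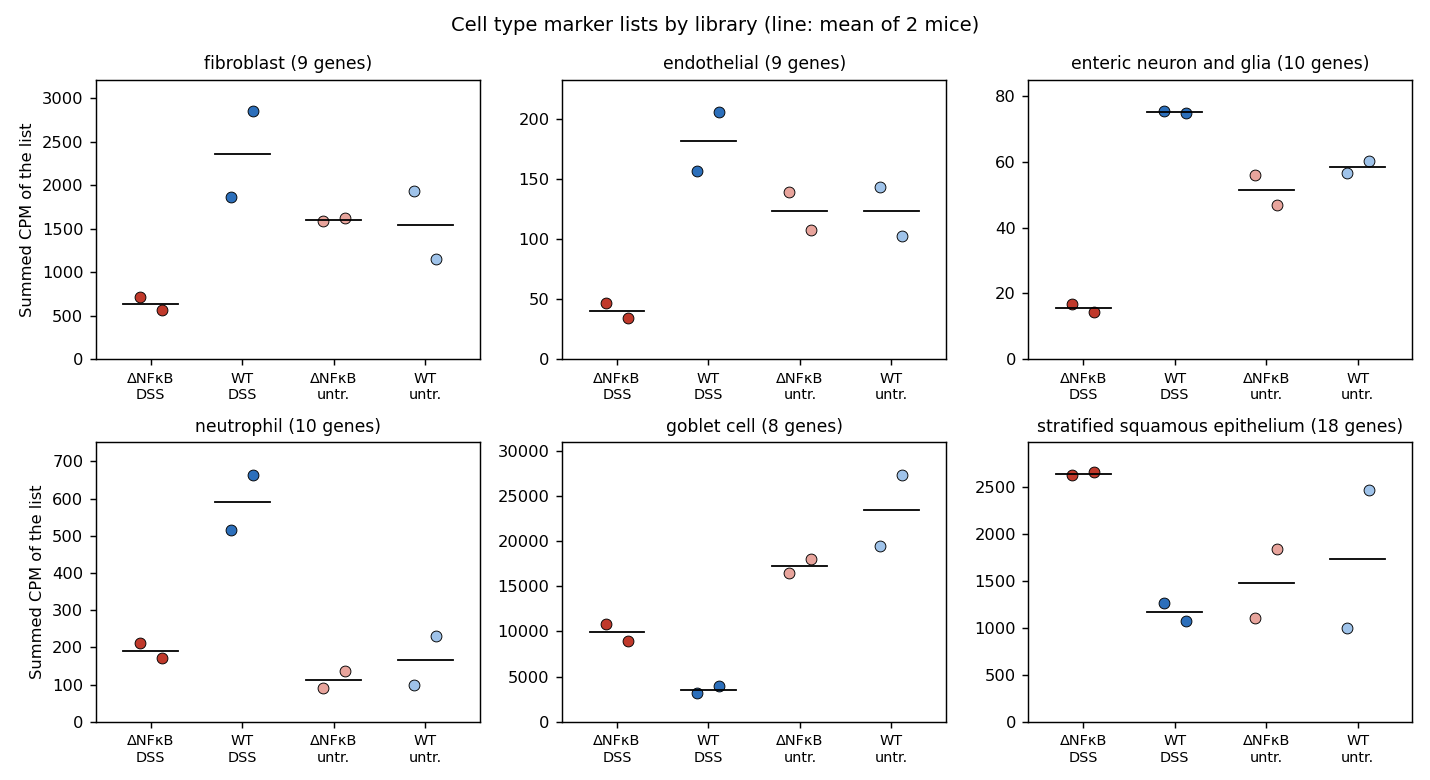
Summed CPM of 6 cell type marker lists in each library, with a line at the mean of 2 mice and axes from 0. Fibroblast, endothelial, enteric neuron and glia, and neutrophil sums are lower in both ΔNFκB DSS libraries than in both WT DSS libraries, and goblet cell and squamous sums are higher. The median log2 fold change of the 8 tested squamous markers was −0.78 in this comparison, opposite to the sum of their list.

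Other extracellular protease inhibitors, such as tissue inhibitors of metalloproteinases, cystatins and stefins, were counted beside the serpins. Of 23 tested, 6 rose and 8 fell with DSS in ΔNFκB mice, 9 rose and 8 fell in WT mice, and 2 were higher and 8 lower in ΔNFκB DSS than in WT DSS mice, with a median of −0.63 there against −1.45 for the tested serpins. Whether the 2 medians differ was not tested. Timp1, an inhibitor of metalloproteinases, rose in WT mice (3.56 ± 0.44, adjusted p = 0.00092) and was at 0.96 ± 0.52 in ΔNFκB mice (adjusted p = 0.19). Slpi, a secreted inhibitor of neutrophil elastase from epithelium, rose in both (4.80 ± 0.57, adjusted p = 0.00072, in ΔNFκB mice and 2.29 ± 0.49, adjusted p = 0.0088, in WT mice), with a difference of 2.51 ± 0.73 (adjusted p = 0.049) in the opposite direction.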

How the data were processed

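Total RNA of distal colon was sequenced, and per the submitters' processing notes HISAT2 2.1, SAMtools 1.8, featureCounts from Subread 1.6.2 and mm10 were used. Not given in the sources used here were the annotation release, the strand setting and the treatment of reads that match several places. The values the authors deposited are estimated counts per gene that need not be whole (18.8% of values above 0 were not whole), and they were rounded. Lines of the 115 symbols on several lines were summed. In R 4.3.3, edgeR 4.0.16 (limma 3.58.1) filtered genes with filterByExpr (minimum count 10), scaled libraries by TMM and fitted 4 group means to all 8 libraries with the quasi-likelihood test, with Benjamini-Hochberg adjustment over 17522 genes and a threshold of 0.05. The SE is the log2 fold change divided by the root of F. Log2 fold changes are fitted values, and those of groups near 0 reads depend on the prior count. Intervals of read ratios cover counting error only.

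Simulated data with known changes were used to test the fit. With 2 mice a group, and no label saying how replicates were taken, p-values measure the spread between these samples. Replicate numbers did not pair the samples. Genes were named by a fixed rule: every member past the threshold, members that complete a role, and at most the 3 genes of smallest p in a list. The members and lists were chosen with earlier results of these data known. The alternatives were other size factors, other filters, unrounded values, DESeq2 1.42.0, a replicate block, a sex term, the 2 groups alone and leaving out each library. The sex term is set by the WT untreated pair alone. Promoter windows are RefSeq's (GRCm38.p6), and exon lengths and overlaps are from the GENCODE annotation of mm10. Protein sequences were not used here. Of the tested members 1 is not reported here by itself. It stays in the fit and in the family's counts.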

Additional observations from a re-analysis of the deposited data

Results flagged for a closer look

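The DSS response differed between ΔNFκB and WT mice for 7 of the serpins described here. The test was that of the difference itself (edgeR quasi-likelihood, Benjamini-Hochberg adjusted over all genes), which 17.7% of all genes passed. Each of these calls depended on single libraries, as given above for each gene. Sex was spread unevenly over the untreated groups, so these differences are mixed with sex too. With a sex term the call of Serpini1 was lost (−1.43, adjusted p = 0.0855), while Serpinb1a, Serpinb6a and Serpinh1 passed. The differences, ΔNFκB response minus WT response on the log2 scale, were −4.17 for Serpine2 (adjusted p = 0.0248), −3.47 for Serpina3n (adjusted p = 0.0159) and −2.37 for Serpinf1 (adjusted p = 0.0433). They were −1.55 for Serpini1 (adjusted p = 0.0491), −1.34 for Serping1 (adjusted p = 0.0390) and 1.17 for Serpinb5 (adjusted p = 0.0212). For Serpina3h the fitted difference was −7.82 (adjusted p = 0.0390), a value that rests on a group with no reads and is no bound. Serpina3h, an annotated pseudogene, met the filter on low counts in both libraries of the WT DSS group alone.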

How the results depend on the processing

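Of 39 named values past the threshold, 11 stayed past it in every alternative, 28 lost it in at least 1, 15 of them only when a library was left out, and 0 changed sign. The count of serpins with DSS in ΔNFκB mice (10) was 3 with a sex term and 2 to 12 with single libraries left out, and that in WT mice (12) was 8 to 10. The count after DSS (9) was 14 with no filter and 1 to 12 with libraries left out. The count without DSS (0; 0 with DESeq2) was 1 with no filter (Serpinc1) and 0 to 1 with libraries left out. The count of differing responses (8) was 1 to 10 with libraries left out. With the replicate block it was 5 (Serpinf1, Serping1 and Serpini1 were lost), but replicate numbers share nothing in the labels, and the deviations of same-numbered libraries correlated at −0.126 to 0.244. Among values that had not passed, the DSS response in ΔNFκB mice changed sign for Serpinb1a with a sex term (0.76) and ranged from −0.25 to 0.12 with libraries left out. That of Serpinb6a was 0.071 with a sex term, and that of Serpinb9 ranged from −0.26 to 0.21. The difference of responses of Serpina3m ranged from −6.27 to 0.51. The causes were not tested. With size factors other than TMM the median of all genes moved by at most 0.0217. Depth limits the 41 untested serpins, which had at most 14 reads in a library.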
